A study of Mus musculus with 4 samples.

Results

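The 10 genes described here, Hp, Hpx, Crp, Apcs, Itih3, Itih4, Fgl1, Steap4, Cp and Lbp, are acute-phase genes of the liver, all but Steap4 for secreted proteins. They were taken by gene symbol from the 18193 genes that the platform annotation names on the arrays, and all 10 were found. For each gene the brightest probe set stands, the one with the highest mean signal over the 4 arrays, and Cp, Steap4 and Lbp have further probe sets that served as a check. The tested livers came from mice labelled delta MET + EGFRi. These mice carried Met alleles flanked by recombination sites and a tamoxifen-inducible Cre (genotype Metff/ff:ERCre+/+), received tamoxifen on 5 days to delete exon 16 of Met throughout the body, rested for 4 days and then ate a diet with canertinib, an EGFR inhibitor, aimed at 80 mg/kg/day. Control livers came from littermates of the same genotype, floxed Met and Cre included, that were given the corn oil vehicle and no canertinib. Livers were taken at day 7 and day 10, counted in delta MET + EGFRi mice from the start of the canertinib diet and in control mice from the end of the 4-day rest. All RNA of a group at a day went onto 1 Affymetrix array as a pool, so that each group has 2 arrays, of different days, and no spread between animals was measured. The age and sex of the mice and the number of animals in a pool are not given in the sources used here. Tamoxifen, Met deletion, canertinib and any change in feeding differ between the groups together and cannot be told apart.

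The acute-phase response is the change in plasma protein output that the liver makes during inflammation or injury. Interleukin 6, through STAT3, and interleukin 1, through NF-kB and C/EBP factors, reach hepatocytes and raise the transcription of these genes, most of them already active at rest. Hp (haptoglobin) binds free haemoglobin and Hpx (hemopexin) binds free heme, so that both limit iron loss and oxidative damage. In mice Apcs (serum amyloid P component) is the pentraxin known for a strong acute-phase rise, while Crp (C-reactive protein), the main such pentraxin in humans, is known for a small one.

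Values are MAS5 signals in arbitrary units on a linear scale, and all arrays had been scaled to nearly the same trimmed mean. Over the 4 arrays the median signal ranged from 210.5 to 223.9, and the correlation of array pairs over probe sets lay between 0.923 and 0.948, a description of arrays that share platform and tissue. Of 12 hepatocyte markers 11 were on the arrays and all 11 were above the filter on dim genes, and their summed signal was 445880 at day 7 and 387968 at day 10 in delta MET + EGFRi livers, against 364713 and 359585 in control livers. Met itself had 2432.5 units at day 7 and 2828.7 at day 10 in delta MET + EGFRi livers, against 975.5 and 1270.8 in control livers (limma adjusted p = 0.103), and whether its probe set lies in the deleted exon was not tested. Differences are log2 of delta MET + EGFRi minus control. The 2 groups were compared with limma over 11991 genes above the filter, with Benjamini-Hochberg adjustment over all of them, and a gene is called higher or lower at an adjusted p under 0.05. With 2 arrays a side, which are days as well as replicates, these p-values measure the spread between the arrays only. Single days have 1 array a side, no replicate check and no test.

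All 10 genes passed the filter on dim genes and all were higher in delta MET + EGFRi livers at both days, as were 26.8% of all genes tested. Fgl1 and Itih3 rose. Thus 2 of the 10 genes were called higher, against 0.4% of all genes tested, and 0 were called lower, against 0.284% (0 also at an unadjusted p under 0.05). The log2 difference over both days ran between 0.19 for Hpx and 3.25 for Fgl1, with a median of 1.496 against -0.02 over all genes tested. Both arrays of delta MET + EGFRi livers lay above both control arrays for 10 of the 10 genes, against 20.3% of all genes. At an unadjusted p under 0.05, 8 of the 10 genes were higher, against 6.0% of all genes. Hp and Hpx were the genes that did not reach it.

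**Figure D1:**
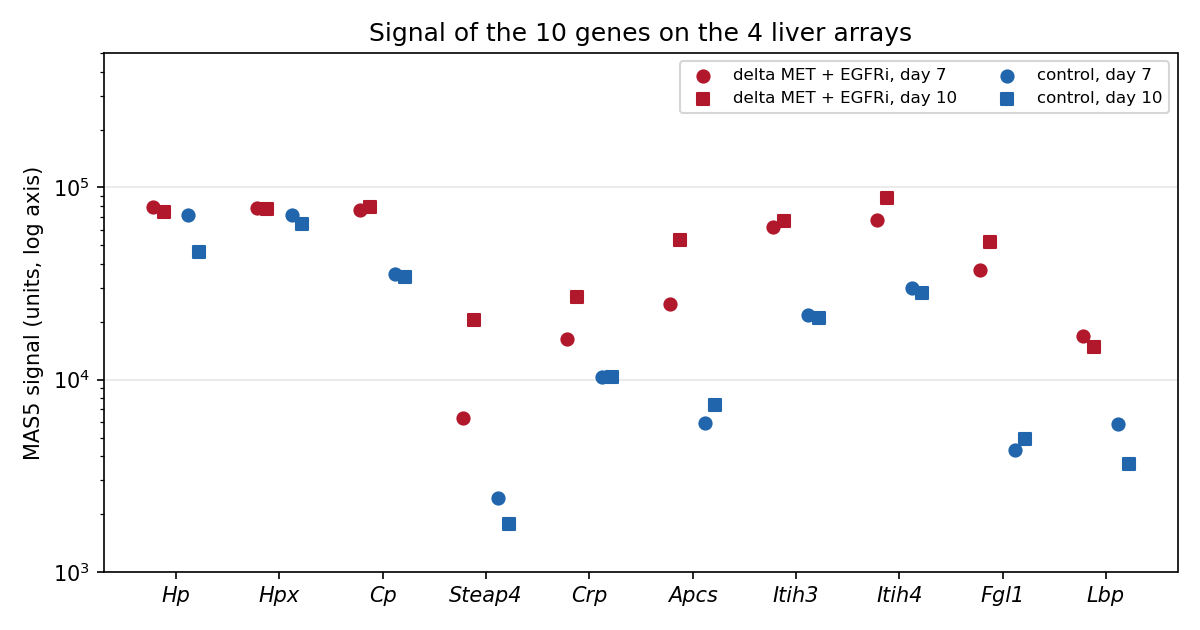
MAS5 signal (units, log axis) of the brightest probe set of each of the 10 genes, with circles for day 7, squares for day 10, red for delta MET + EGFRi and blue for control livers. For every gene both red points lie above both blue points. The gap is narrow for Hp and Hpx, and wide for Fgl1, where 37090.6 and 52087.5 units stand against 4321.7 and 4918.6.

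The haemoglobin and heme scavengers differed least between the groups. Hp had 78991.6 units at day 7 and 74796.2 at day 10 in delta MET + EGFRi livers, against 71897.1 and 46341.8 in control livers. The control array of day 10 was the low one, and the other 3 arrays lay close together. The log2 difference of Hp was 0.41 ± 0.27 (limma SE, 95% interval -0.25 to 1.08, adjusted p = 0.602). It was 0.73 when the day 7 control array was left out and 0.096 when the day 10 control array was. Hpx had 78338.8 and 77412.1 units in delta MET + EGFRi livers at day 7 and day 10, against 72072.1 and 64776.3 in control livers. Its 4 values did not overlap between the groups, but the log2 difference was only 0.19 ± 0.21 (95% interval -0.33 to 0.70, limma adjusted p = 0.767; 0.11 when the day 10 control array was left out). With quantile normalization the difference of Hpx at day 7 was 0 on the log2 scale.

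Both scavengers lay near the top of the signal scale. The brightest probe set of each array had 85334.9 units at day 7 and 89171.6 at day 10 in delta MET + EGFRi livers, against 84856.9 and 79871.9 in control livers. Hp reached 92.6% and 83.9% of that top at day 7 and day 10 in delta MET + EGFRi livers, against 84.7% and 58.0% in control livers. Had both delta MET + EGFRi signals equalled the top of their arrays, the log2 difference of Hp would have been 0.60 and that of Hpx 0.35. The brightest probe set is not a measured ceiling of the scale, and whether the signals were saturated was not tested. Itih4 and Cp also lay close to it. For Itih4 the value at the top would be 1.58, against 1.40 observed, and for Cp 1.32, against 1.16 observed. Itih3 reached 73.1% and 74.7% of the top at day 7 and day 10 in delta MET + EGFRi livers. Its value at the top would be 2.03, against 1.59 observed. Crp, Lbp, Steap4, Apcs and Fgl1 lay further from the top, and the value at the top was 3.08 for Crp, against 1.02 observed.

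**Figure D2:**
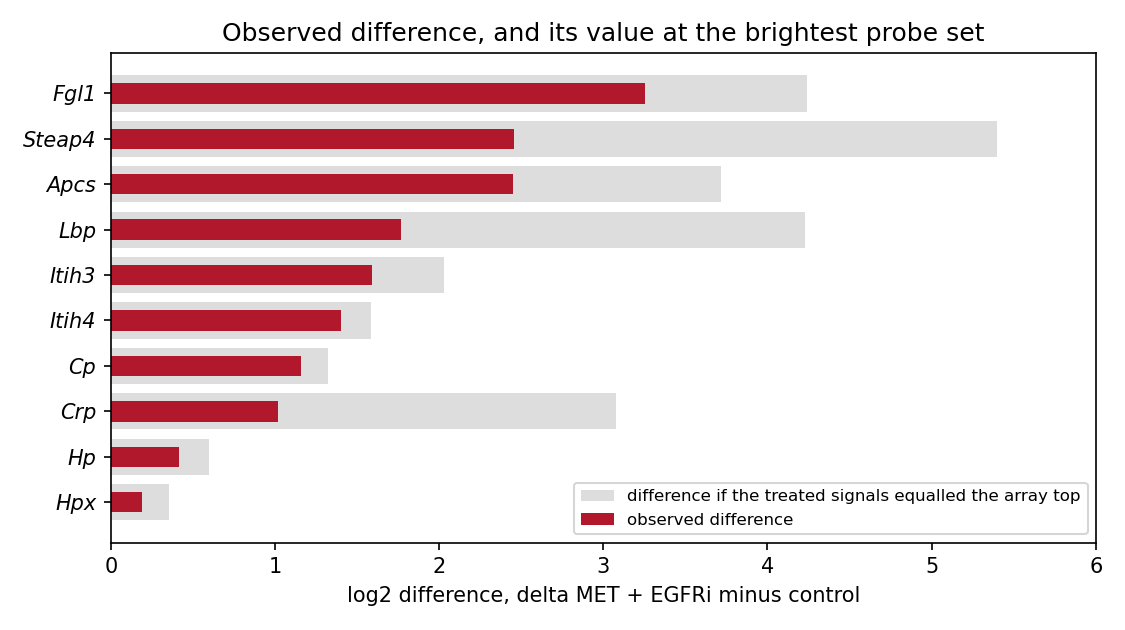
Log2 difference of each gene over both days as observed (red bars) and as it would be if the delta MET + EGFRi signals equalled the brightest probe set of their arrays (grey bars). The observed bars of Hp, Hpx, Itih4 and Cp end 0.16 to 0.18 short of the grey ones on the log2 scale, and those of Crp, Lbp and Steap4 stay far below them.

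Cp and Steap4 handle metal ions. Cp encodes ceruloplasmin, the copper-carrying ferroxidase of plasma, and Steap4 a membrane metalloreductase that acts on iron and copper and is also known from fat cells and macrophages. Cp had 76157.7 units at day 7 and 79197.1 at day 10 in delta MET + EGFRi livers, against 35438.9 and 34234.6 in control livers. Arrays of a group agreed closely, and the groups lay more than 2-fold apart at both days. The log2 difference was 1.16 ± 0.21 and missed the threshold (limma adjusted p = 0.0894).

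Cp was read by 8 probe sets, of which the brightest is given above. Their log2 differences over both days ranged from 0.84 to 1.55, all higher in delta MET + EGFRi livers. Of the 8, 6 were above the filter, and their adjusted p in a limma fit over 22518 probe sets ranged from 0.0571 to 0.137. Dimmer probe sets of Cp lay on both sides of the 1.16 of the brightest, most of them higher. The dimmer ones that passed the filter gave 1.18, 1.37, 1.03, 1.38 and 1.55. The one with control signals of 4650.9 and 5742.4 gave a log2 difference of 1.38, and the one with 9925.6 and 11717.9 gave 1.03.

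Steap4 varied most between the days. It had 6280.0 units at day 7 and 20485.0 at day 10 in delta MET + EGFRi livers, against 2419.1 and 1768.2 in control livers. The day 10 array was 11.6-fold above its control and the day 7 array 2.60-fold. The log2 difference over both days was 2.46 ± 0.53, the largest SE of the 10 genes, and did not pass (limma adjusted p = 0.151). Leaving out the day 7 delta MET + EGFRi array gave 3.31, leaving out that of day 10 gave 1.60, and Steap4 passed in both fits (limma adjusted p = 0.000373 and 0.0202), which take their spread from the control arrays alone. The other probe set of Steap4 had 2471.9 and 8032.7 units in delta MET + EGFRi livers, against 1170.8 and 1267.7 in control livers. It showed the same order of days, with log2 differences of 1.08 at day 7 and 2.66 at day 10. Of its relatives, Steap1 differed by -0.91 at day 7 and 1.27 at day 10 (limma adjusted p = 0.934 over both days). Steap2 (0.50, adjusted p = 0.541) and Steap3 (0.22, adjusted p = 0.857) did not pass in the limma fit either. These relatives were dim, with signals from 182.6 to 706.3 units.

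**Figure D3:**
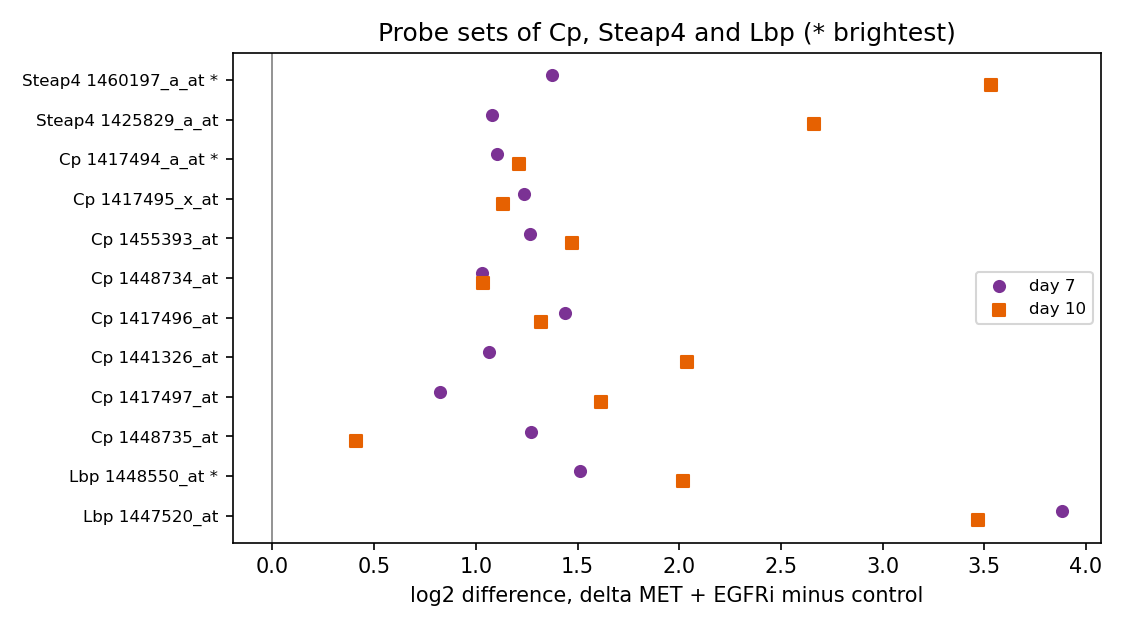
Log2 difference at day 7 (circles) and day 10 (squares) for each probe set of Cp, Steap4 and Lbp, the brightest of a gene marked with an asterisk. All points lie above 0. The probe sets of Cp fall between 0.41 and 2.04, both probe sets of Steap4 have the higher value at day 10, and the second one of Lbp, whose control signals were under the floor, lies above the brightest.

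The pentraxins Crp and Apcs encode plasma proteins that bind phosphocholine, bacterial surfaces and cell debris. Apcs had 24648.0 units at day 7 and 53299.8 at day 10 in delta MET + EGFRi livers, against 5920.6 and 7403.2 in control livers. The lower of the delta MET + EGFRi arrays was still more than 3-fold above the higher control array. The log2 difference was 2.45 ± 0.38 (limma adjusted p = 0.0622). Over the 14 alternatives its adjusted p ran from 0.000171 to 0.361. Apcs passed with arrays scaled to equal medians (limma adjusted p = 0.0426), without either delta MET + EGFRi array and at a threshold of 0.1, and not in the other 10. Crp had 16193.5 and 27015.3 units in delta MET + EGFRi livers, against 10360.2 and 10324.4 in control livers. Its control arrays were almost equal, and the delta MET + EGFRi arrays differed between the days. The log2 difference of Crp was 1.02 ± 0.29 (limma adjusted p = 0.248; 0.65 without the day 10 array of delta MET + EGFRi livers and 1.39 without that of day 7). The 95% interval of Apcs, 1.53 to 3.37, overlapped that of Crp, 0.32 to 1.71. Ptx3, the long pentraxin, lay under the filter on dim genes.

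Crp and Apcs are neighbours on chromosome 1, with 0 protein-coding genes between them in the RefSeq annotation of GRCm38.p6. Itih3 and Itih4 are likewise neighbours on chromosome 14, and Itih1 lies next to Itih3. Their upstream sequences are shown with that of Steap4 because the members of each pair lie side by side on a chromosome, and because the difference of Steap4 varied most between the days. The sequences are the 250 bases before the annotated start, 5′ to 3′ on the strand of the gene, from RefSeq (GRCm38.p6). They are chr1:172895055-172895304 (minus strand) for Apcs, chr1:172697806-172698055 (plus) for Crp, chr14:30923588-30923837 (minus) for Itih3, chr14:30886226-30886475 (plus) for Itih4 and chr5:7960222-7960471 (plus) for Steap4. Capitals mark matches to TTCNNNGAA, the palindrome that STAT factors bind, to CTGGGAA, the core of elements known from interleukin 6 responsive liver genes, and to TTGCNNAA, a C/EBP-type motif.
Apcs: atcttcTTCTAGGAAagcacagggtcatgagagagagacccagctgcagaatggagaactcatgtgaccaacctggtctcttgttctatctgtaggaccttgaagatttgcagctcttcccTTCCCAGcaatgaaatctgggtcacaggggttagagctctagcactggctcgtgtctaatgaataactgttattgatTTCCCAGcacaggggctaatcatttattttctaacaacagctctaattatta
Crp: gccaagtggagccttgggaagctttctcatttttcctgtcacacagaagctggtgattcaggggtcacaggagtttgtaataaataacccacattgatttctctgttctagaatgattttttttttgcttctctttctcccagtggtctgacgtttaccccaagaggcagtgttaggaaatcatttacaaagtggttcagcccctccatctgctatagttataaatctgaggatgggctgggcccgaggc
Itih3: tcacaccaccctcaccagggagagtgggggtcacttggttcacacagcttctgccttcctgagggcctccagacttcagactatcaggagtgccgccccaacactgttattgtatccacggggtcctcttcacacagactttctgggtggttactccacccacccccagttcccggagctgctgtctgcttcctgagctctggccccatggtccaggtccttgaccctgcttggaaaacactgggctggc
Itih4: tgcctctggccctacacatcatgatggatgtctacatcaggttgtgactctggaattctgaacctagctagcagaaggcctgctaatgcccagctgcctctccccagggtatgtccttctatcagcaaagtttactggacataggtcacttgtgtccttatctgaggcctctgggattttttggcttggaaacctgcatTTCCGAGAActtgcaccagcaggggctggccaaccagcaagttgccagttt
Steap4: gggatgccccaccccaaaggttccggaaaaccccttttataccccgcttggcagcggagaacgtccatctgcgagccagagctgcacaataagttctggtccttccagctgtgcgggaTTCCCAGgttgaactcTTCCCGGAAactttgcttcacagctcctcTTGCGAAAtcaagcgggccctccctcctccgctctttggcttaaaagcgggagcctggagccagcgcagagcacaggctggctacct

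The 300-base windows of RefSeq, which also hold the first 50 bases after the start, were searched on both strands for 4 motifs. Windows were available for 7 of the 10 genes, with 2 windows for Cp and thus 8 in all. Hp, Fgl1 and Lbp had no window in the sequences used and were not searched. The palindrome TTCNNNGAA was in the windows of Apcs, Steap4 and Itih4, or 3 of 8, and in 8.3% of all 32851 windows. In Apcs the match was TTCTAGGAA, 244 to 236 bases before the start, in Itih4 it was TTCCGAGAA, 51 to 43 bases before, and in Steap4 it was TTCCCGGAA, 116 to 108 bases before. The core CTGGGAA, which can overlap that palindrome but did not here, was in Apcs, at 2 places, and in Steap4, and in 11.1% of all windows. TTGCNNAA was in Hpx, Steap4 and 1 window of Cp, and in 10.8% of all windows. GTTAATNA, part of the HNF1 site, was in 1 window of Cp and in 2.54% of all. Crp and Itih3 held none of the 3 motifs in capitals. Overlapping windows of 1 gene share sequence, and a match describes letters only.

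Itih3 and Itih4 encode heavy chains of the inter-alpha-trypsin inhibitor family, plasma proteins of the extracellular matrix. Itih3 had 62377.0 units at day 7 and 66625.9 at day 10 in delta MET + EGFRi livers, against 21784.0 and 20974.8 in control livers. The arrays of each group lay close together, and Itih3 rose 3.02-fold (log2 difference 1.59 ± 0.21, limma adjusted p = 0.0323). The call was lost with the day in the fit as a block (limma adjusted p = 0.142), on leaving out the control array of day 7 (0.365) or of day 10 (0.434), when eBayes took no trend with signal (0.0765), when a gene's probe sets were averaged (0.0632) and when dim genes stayed in the fit (0.346). Itih4 had 67271.1 and 87673.5 units in delta MET + EGFRi livers, against 29829.3 and 28386.0 in control livers. Its log2 difference was 1.40 ± 0.23 and missed the threshold (limma adjusted p = 0.0736), and its day 10 signal stood at 98.3% of the top of that array. Their neighbour Itih1 had 19626.1 and 23643.6 units in delta MET + EGFRi livers, against 12059.7 and 13088.8 in control livers, a log2 difference of 0.78 (limma adjusted p = 0.237). Itih2 differed by 0.91 at day 7 and -0.04 at day 10 (limma adjusted p = 0.608 over both days), and Ambp, which encodes the light chain bikunin, by 0.28 and 0.35 (limma adjusted p = 0.625 over both days).

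Fgl1 encodes a fibrinogen-like protein that hepatocytes secrete, known as hepassocin and as a ligand of the T cell receptor LAG3. It had 37090.6 units at day 7 and 52087.5 at day 10 in delta MET + EGFRi livers, against 4321.7 and 4918.6 in control livers. Fgl1 rose 9.53-fold, the largest of the 10 differences (log2 difference 3.25 ± 0.25, 95% interval 2.66 to 3.85, limma adjusted p = 0.00502, and 0.0207 with a block for the day). Leaving out the control array of day 7 or of day 10 gave log2 differences of 3.16 and 3.35 that did not pass (limma adjusted p = 0.0907 and 0.106), nor did Fgl1 pass without a filter on dim genes (0.151). Its interval lay above those of Hp, Hpx, Crp, Itih3, Itih4, Cp and Lbp, and overlapped those of Apcs and Steap4. The fibrinogen chain genes Fga, Fgb and Fgg, relatives of Fgl1 and acute-phase genes themselves, had log2 differences of 0.59, 0.69 and 0.51 (limma adjusted p = 0.357, 0.328 and 0.423). Their control signals, from 46424.0 to 54215.1, were high on the scale too, and Fgb was the brightest probe set on the day 10 array of delta MET + EGFRi livers.

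Lbp encodes the plasma protein that carries bacterial lipopolysaccharide to CD14. It had 16851.2 units at day 7 and 14844.0 at day 10 in delta MET + EGFRi livers, against 5912.9 and 3661.9 in control livers. The log2 difference was 1.77 ± 0.28 (limma adjusted p = 0.0640). A second probe set of Lbp had 954.1 and 717.6 units in delta MET + EGFRi livers, against 29.6 and 24.7 in control livers. Both control signals were under the floor of 64.8 units, so that its fold was at least 12.8 (limma adjusted p = 0.0206 over probe sets, of which 0.293% were called higher). With the mean of both probe sets the log2 difference of Lbp was 2.72 and passed (limma adjusted p = 0.0179), and over the 14 alternatives its adjusted p ran from 0.0146 to 0.388, with 4 passing.

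**Figure D4:**
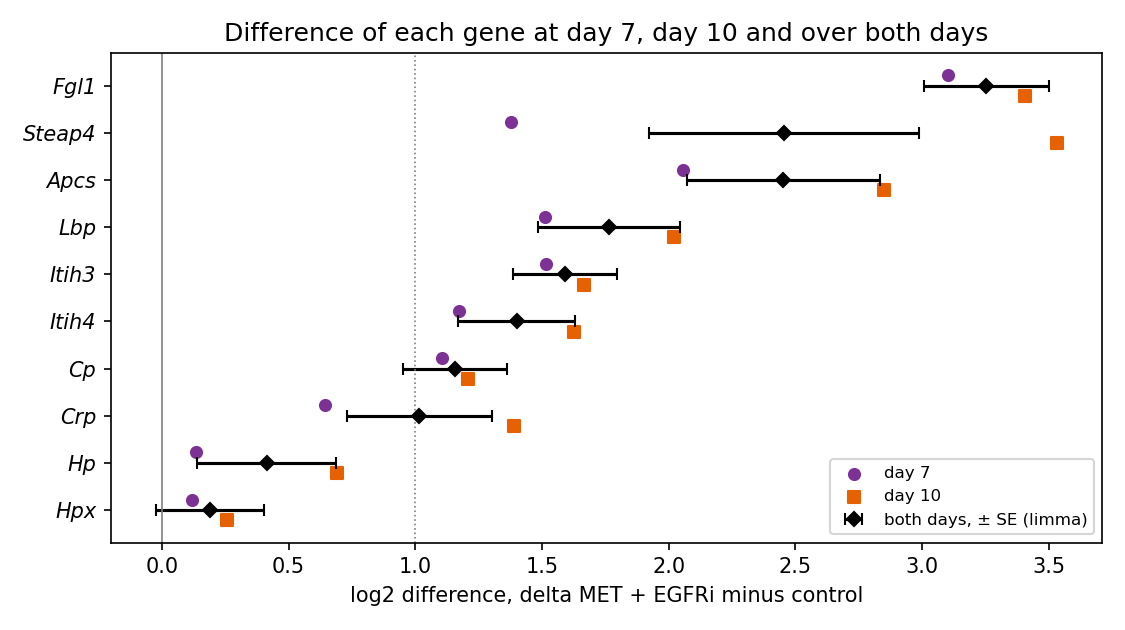
Log2 difference (delta MET + EGFRi minus control) of each gene at day 7 (circles) and day 10 (squares), and over both days with limma's SE (diamonds and bars). The dotted line marks 2-fold. Values over both days run between 0.19 for Hpx and 3.25 for Fgl1, and the days lie farthest apart for Steap4.

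At day 7, 7 of the 10 genes were at least 2-fold higher in delta MET + EGFRi livers, against 4.73% of all genes tested. At day 10 it was 8 of the 10, against 5.98%, Crp being the gene added. The same 7 were at least 2-fold higher at both days, against 1.63%. The median log2 difference of the 10 was 1.27 at day 7 and 1.65 at day 10, and over all genes tested it was -0.06 and 0.01. At least 2-fold lower were 0 of the 10 at day 7, against 5.22%, and 0 at day 10, against 5.0%.

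On the brightest probe set of each gene, the difference was larger at day 10 than at day 7 for 10 of the 10 genes, against 53.1% of all genes tested. With arrays scaled to equal medians this held for 8 of the 10, without Hpx and Cp, against 44.1%. The gap between the days was 2.16 on the log2 scale for Steap4, 0.79 for Apcs and 0.74 for Crp, and 0.11 for Cp. Dimmer probe sets of Cp went both ways. The one with control signals of 4650.9 and 5742.4 had 1.44 at day 7 and 1.32 at day 10. The one with 16439.7 and 16667.7 had 1.27 and 1.47. The second probe set of Lbp, with control signals under the floor, had 3.88 at day 7 and 3.47 at day 10. Averaging the probe sets within each gene still gave 10 of the 10 genes larger at day 10. Each day has its own control array, and the change between the days had no replicate and was not tested. In delta MET + EGFRi livers Apcs and Steap4 were at least 2-fold higher at day 10 than at day 7, or 2 of the 10, against 3.94% of all genes. Hp, Hpx and Lbp were lower at day 10 than at day 7 in those livers, by -0.08, -0.02 and -0.18 on the log2 scale, or 3 of the 10, against 47.4% of all genes. Their control signals were lower at day 10 by more, at -0.63, -0.15 and -0.69, so that the larger difference at day 10 came with a lower control array. In control livers 8 of the 10 genes were lower at day 10 than at day 7, Apcs and Fgl1 being higher, against 52.4% of all genes, and Crp was lower by only -0.0050 on the log2 scale.

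The partners of the 10 genes were described by counts in the same limma fit. Over all genes tested 0.4% were called higher and 0.284% lower. At an unadjusted p under 0.05, 6.0% of all genes were higher. Of 14 haemoglobin and heme handling genes above the filter, 1 rose, the haptoglobin-haemoglobin receptor Cd163 (7.72-fold, adjusted p = 0.0176), and the list's median log2 difference was 0.59. Of 13 copper and metal reduction genes 0 were called by limma (1 was higher at an unadjusted p under 0.05), with a median of 0.05. Of 9 pentraxin relatives and receptors 1 rose, the complement gene C1qc (4.83-fold, adjusted p = 0.0308), with a median of 0.43. Of 7 genes of the inter-alpha-trypsin inhibitor family and its hyaluronan partners 1 rose, the hyaluronan receptor Cd44 (3.39-fold, adjusted p = 0.0282), with a median of 0.31. Of 5 fibrinogen-like relatives 0 were called by limma (2 higher at an unadjusted p under 0.05, median 0.59). Of 13 genes of lipopolysaccharide recognition 0 were called either (2 higher at an unadjusted p under 0.05, median 0.05), and among them the Lbp partner Cd14 was 2.50-fold higher without passing (limma adjusted p = 0.0640).

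Upstream regulators were mixed. Of 13 genes of interleukin 6 and STAT3 signaling 0 were called by limma (4 higher at an unadjusted p under 0.05), and the median was 0.01. Socs3, a STAT3 target that feeds back on the receptor, had log2 differences of 1.79 at day 7 and 4.30 at day 10 (limma adjusted p = 0.165), and Stat3 of 1.08 and 1.85 (limma adjusted p = 0.0870). Both had the larger difference at day 10, as did 53.1% of all genes tested. Of 8 interleukin 1 genes 2 rose, the receptor Il1r1 (20.8-fold, limma adjusted p = 0.00153) and the NF-kB cofactor Nfkbiz (7.01-fold, limma adjusted p = 0.0282), with a median of 0.52. At an unadjusted p under 0.05, 3 of the 8 were higher and 1 was lower, the co-receptor gene Il1rap, which differed by -0.78 at day 7 and -1.28 at day 10 (limma adjusted p = 0.167 over both days). Of 12 liver transcription factors 2 rose, Cebpb (2.98-fold, limma adjusted p = 0.0310) and Cebpd (4.18-fold, limma adjusted p = 0.0229), which bind acute-phase promoters, with a median of 0.30. At an unadjusted p under 0.05, 3 of the 12 were higher and 2 lower. By day, Il1r1 (4.12 at day 7 and 4.63 at day 10) and Cebpb (1.46 and 1.69) had the larger log2 difference at day 10. Nfkbiz (3.29 and 2.32) and Cebpd (2.35 and 1.78) had the larger one at day 7. Of 12 strong acute-phase genes 7 rose and 2 fell, the hepcidin genes Hamp and Hamp2, with a median of 3.25, against 1.496 for the 10 genes. Of 12 negative acute-phase genes 0 were called by limma (2 higher and 2 lower at an unadjusted p under 0.05), and the median was 0.02. The median over all genes tested was -0.02.

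**Figure D5:**
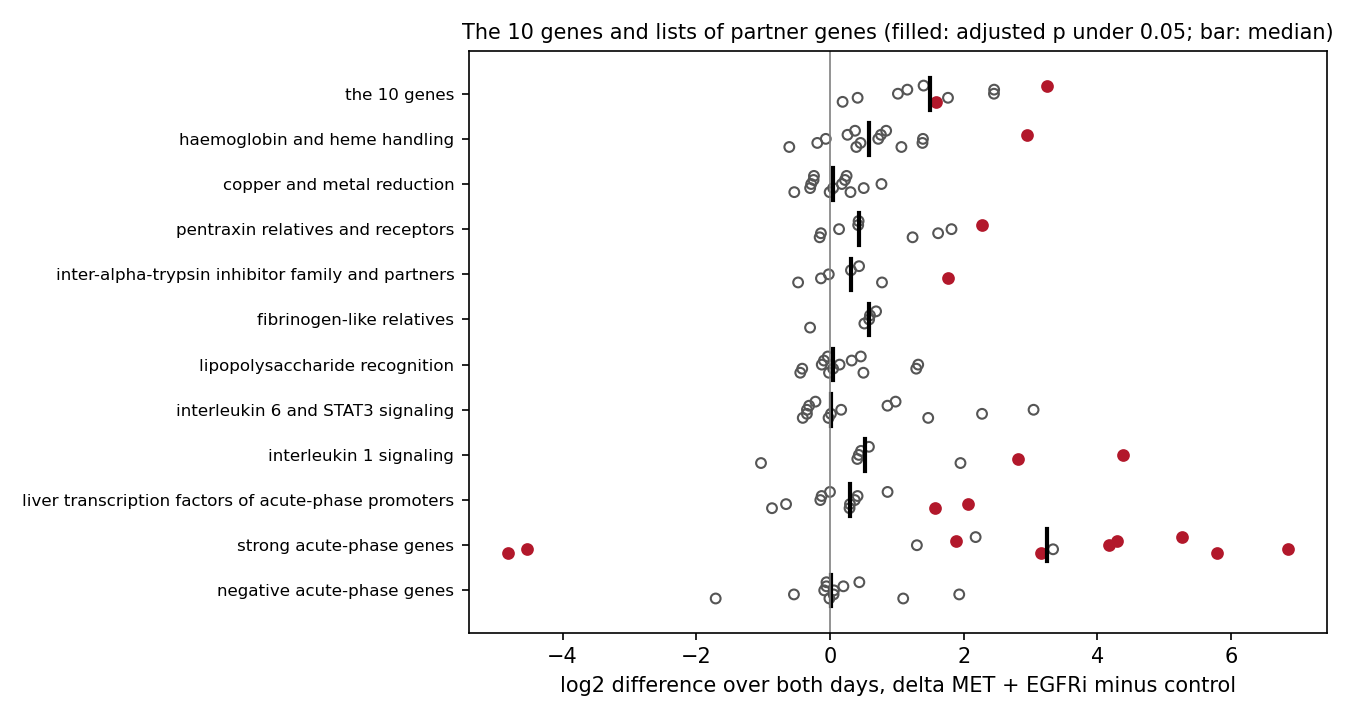
Log2 difference over both days (delta MET + EGFRi minus control) of the genes above the filter in each list, filled where called and open where not, with a bar at the median. The median is 1.496 for the 10 genes, 3.25 for strong acute-phase genes and 0.02 for negative acute-phase genes.

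Markers of other cell types moved beside these genes. All 13 Kupffer cell and macrophage markers were higher at both days, against 26.8% of all genes tested. Of these markers 3 rose (Vsig4, C1qc and Cd163), against 0.4% of all genes. Their summed signal was 53279.8 and 53877.0 in delta MET + EGFRi livers at day 7 and day 10, against 24377.0 and 13827.6 in control livers. Of 10 neutrophil markers above the filter 3 rose, S100a8, S100a9 and Prtn3, and 1 of the 12 on the arrays, Camp, was at or under the floor on all 4 arrays. The summed signal of the neutrophil list was 11850.9 and 15139.5 in delta MET + EGFRi livers, against 4589.6 and 4578.2 in control livers, and its median log2 difference was 0.63. S100a8 alone had 3352.5 and 3656.0 units in delta MET + EGFRi livers, against 388.4 and 304.8 in control livers, and Prtn3 had 1540.9 and 4543.7, against 44.2 and 49.2. Mpo (0.14), Elane (-0.07) and Mmp9 (-0.44) did not pass (limma adjusted p = 0.848, 0.964 and 0.633). Nor did the others above the filter, Csf3r (1.55), Ngp (0.76), Ltf (0.49) and Mmp8 (0.26) (limma adjusted p = 0.303, 0.446, 0.565 and 0.717). Haptoglobin is also stored in neutrophil granules, and the part of these cells in the signals of the 10 genes was not tested. In whole liver more cells of a type and more RNA per cell cannot be told apart. Of 8 B and plasma cell markers 1 rose, Jchain, and the median log2 difference was -0.07, with 3 of the 8 higher and 3 lower at both days. The list sums were 20673.8 and 20189.7 in delta MET + EGFRi livers, against 13361.9 and 11911.8 in control livers, and Ighm, which did not pass (limma adjusted p = 0.111), had 9577.8 and 7610.5 units of them in delta MET + EGFRi livers, against 2715.6 and 1016.8 in control livers. For 3 T and NK cell markers 0 were called by limma (0 also at an unadjusted p under 0.05), with sums of 2755.1 and 3511.2 in delta MET + EGFRi livers, against 2775.8 and 2715.0 in control livers. The 9 sinusoidal endothelial, 7 stellate cell and 2 cholangiocyte markers gave 0 calls as well by limma (0, 1 and 0 at an unadjusted p under 0.05), with median log2 differences of 0.19, -0.20 and -0.57. The 11 hepatocyte markers gave 0 calls by limma (3 higher at an unadjusted p under 0.05), with a median of 0.25.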

How the data were processed

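Affymetrix mouse arrays of a single colour, 4 in all, measured liver RNA pooled by group and day. The deposited intensity (signal) values are linear and were made with MAS5, per the submitters' processing notes, version not given in the sources used here. Columns of no sample numbered 0. The members and gene lists were chosen with earlier results of these data known. Most genes named follow a fixed rule: the 10 genes, Met, Egfr, named relatives, and up to 3 genes of each list with the largest smaller daily difference of like sign. Named outside this rule were Il1rap and the neutrophil markers other than S100a8, S100a9 and Prtn3.

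Of 45101 probe sets, 64 array controls were left out and 34945 had a single gene symbol, 932 several and 9160 none. Symbols were matched by Entrez ID to RefSeq (GRCm38.p6, 99.42% matched, 0 updated). Signals under the 25th percentile (64.8) were set to it and log2 was taken. Genes were kept where their mean log2 exceeded the median of probe sets (7.67). limma 3.58.1, run in R 4.3.3, gave the comparison of the groups (lmFit, eBayes with trend, two-sided, no day term). Members with a single array a side were described by a 2-fold rule. Figures used Python 3.11.15 and matplotlib 3.10.9. Alternatives were other scalings, floors, filters, probe set means, no trend, day as a block, each array left out, and other thresholds. Both groups share the days, which the labels give. Same-day deviations correlated with r = -0.064 across 11991 genes.

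On simulated arrays with the means of these 11991 genes, 200 of them changed in each of 10 runs, limma recovered 2.5% of the 2-fold changes, 56.5% of the 4-fold ones and 76.0% of the 8-fold ones, and 5.28% of calls were false. The number of arrays limits the precision, and no interval for depth applies to intensities.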

Additional observations from a re-analysis of the deposited data

Results flagged for a closer look

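Among the genes of the naming rule in the 10 genes' own families, Met and Egfr, the difference between delta MET + EGFRi and control livers had opposite signs at the 2 days for 3, none of them a member. Steap1 differed by -0.91 at day 7 and 1.27 at day 10, a change of 2.18 on the log2 scale. It was dim, with 186.6 and 706.3 units in delta MET + EGFRi livers, against 351.0 and 293.4 in control livers. The filter on dim genes stood at 204.3 units. Itih2 differed by 0.91 and -0.04, a change of -0.95. Egfr, the target of canertinib, differed by 0.24 and -0.33, a change of -0.57. Each day has 1 array a side, and these differences between the days were not tested.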

How the results depend on the processing

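In all 14 alternatives the log2 differences of the 10 genes over both days kept their direction. The other floors and filters, the fit without the trend, the day block and the looser threshold left these differences unchanged. Direction could therefore not change in those settings, and they are no check of it. Of 140 such values, 112 stayed on their side of the threshold, 19 passed where the reported value did not and 9 failed where it did. Fgl1 passed in 11 of 14 alternatives, Itih3 in 8, Apcs, Itih4, Cp and Lbp in 4 each, Steap4 in 2, Crp in 1, and Hp and Hpx in 0. Counts follow in the order of all genes called (82 as reported), genes called higher (48), members called higher (2) and list genes called (16). Without a filter on dim genes all 4 counts were 0 by limma, with 1915 of 18193 genes at an unadjusted p under 0.05. With the mean of probe sets they were 42, 22, 2 and 6, without the intensity trend 42, 23, 1 and 6, and with day as a block 35, 19, 1 and 7. At an adjusted p under 0.1 they were 167 and 98 genes and 6 members, against 0.817% of all genes tested called higher. With the filter at the 75th percentile 4 members were called, against 0.632% of the genes tested there. Leaving out an array gave 25 to 427 genes called, 14 to 185 called higher, 0 to 8 members and 6 to 34 list genes. Without the day 7 or the day 10 array of delta MET + EGFRi livers the median log2 difference of the 10 genes was 1.62 and 1.38. Without the day 7 or the day 10 control array it was 1.53 and 1.39. Fits that leave out an array take the spread from the group that keeps 2 arrays, which the lone array is assumed to share. A 3-fold rule left 2 members at day 7 and 6 at day 10, and a 1.5-fold rule gave 8 and 9. The share of all genes at these folds is not given here, so the counts are a description only. The cause of the changes in the counts was not tested. Some settings use fewer arrays or other genes, and others use the same arrays and genes. Hp, Hpx, Itih4 and Cp lay close to the brightest probe set of their arrays, which is no measured ceiling, and saturation was not tested.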
